A study of Mus musculus with 12 samples.

Results

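The 6 genes described here report on glucocorticoid signalling: the receptor Nr3c1, the enzyme Hsd11b1, the co-chaperone Fkbp5, the transcriptional regulators Tsc22d3 and Zbtb16, and the kinase Sgk1. They were chosen by name, and each symbol matched 1 of the 52636 Ensembl identifiers in the count files. The RNA came from lymphatic endothelial cells (LECs) that were sorted out of lungs of reporter mice (Prox1-EGFP), in which the regulatory sequence of Prox1 drives green fluorescent protein, after cigarette smoke (CS) or room air (RA). All groups carried the reporter and passed the same gate: live cells without lineage or EPCAM staining that carried both CD31 and green fluorescence. Exposure began at 6 weeks of age, lasted 8 weeks in the acute groups and at least 24 weeks in the chronic groups, and the RA mice were matched in age. The labels name the time points as ages (8wk and Aged), and the exposure times used here are those the authors give. There were 2 acute RA libraries (F, M), 2 acute CS libraries (F, M), 3 chronic RA libraries (F, M1, M2) and 5 chronic CS libraries (F, M1 to M4), where the letter is the sex on the label. Each acute library pooled cells of 2 to 5 mice and the chronic libraries were not pooled, so pooling and time cannot be told apart, and p-values measure the spread between such libraries.

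Glucocorticoids, corticosterone in the mouse, cross the cell membrane and bind the glucocorticoid receptor, which waits in the cytoplasm in a complex with heat shock proteins and co-chaperones. The bound receptor enters the nucleus and acts on genes through paired hexamers in DNA or by restraining inflammatory transcription factors. Fkbp5, Tsc22d3, Zbtb16, Sgk1 and Per1 are widely used readouts of that action, and glucocorticoids are a mainstay of treatment of inflamed airways.

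The library with the fewest counts, chronic CS F, held 18821438, and the one with the most, acute RA F, held 56998590. Expression is given in CPM, the counts scaled to a common library total with edgeR's TMM factors, and differences in log2 fold change from edgeR's quasi-likelihood F-test over 21440 genes, with Benjamini-Hochberg adjusted p-values and a threshold of 0.05. The LEC markers Prox1 (1042 to 2476 CPM) and Flt4 (1159 to 4513 CPM) were abundant in every library, and Ptprc of leukocytes (11.1 to 285 CPM), Epcam of epithelium (0 to 16.1 CPM) and Col1a1 of mesenchyme (3.43 to 65.5 CPM) were also counted. In acute CS the 8 lymphatic markers summed to 5952 to 9159 CPM, against 13628 to 15421 CPM in acute RA. The 8 leukocyte markers summed to 1527 to 2266 CPM against 122 to 132 CPM. Of the lymphatic markers 1 was at 0 in each library and 7 were tested, 6 with a lower and 1 with a higher fitted value in acute CS. Lyve1 held 568 to 986 CPM in acute CS against 443 to 536 CPM in acute RA. Ccl21a, on this list, matched 2 identifiers, of which 1 was used. In such bulk samples fewer cells of a type and less RNA per cell cannot be told apart. Chronic CS F, M1 and M2 held at most 22885446 counts and chronic CS M3 and M4 at least 45436986.

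All 6 members passed the filter on low counts, which left 21440 genes, and their lowest count in any library was 82, for Zbtb16. Levels per length of exon in the 5 RA libraries, in FPKM (CPM divided by exon length in kilobases), put Tsc22d3 first at 68.8 ± 27.4 FPKM (SD, n = 5). Sgk1 followed at 49.7 ± 2.91 FPKM and Nr3c1 at 43.9 ± 4.01 FPKM (SD, n = 5 each). The ranges of these neighbours overlapped, from 37.7 to 111 FPKM for Tsc22d3, 46.3 to 53.0 FPKM for Sgk1 and 39.8 to 49.6 FPKM for Nr3c1. Fkbp5 lay well below them at 7.35 ± 2.59 FPKM, beside Hsd11b1 at 4.57 ± 1.23 FPKM (SD, n = 5 each), again with overlapping ranges. Zbtb16 was lowest at 1.30 ± 0.86 FPKM (SD, n = 5), with a highest RA library at 2.59 FPKM that stayed below the lowest Hsd11b1 value of 3.45 FPKM.

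Across all 12 libraries the 6 genes also differed in how much they varied. Nr3c1 was the steadiest, with an SD of 0.21 on the log2 CPM scale, lower than in all but 11.3% of genes tested. Sgk1 (0.45), Fkbp5 (0.52), Tsc22d3 (0.56) and Hsd11b1 (0.59) lay at or below the median SD of 0.59 over all genes tested. Zbtb16 varied most, with an SD of 1.30. The plot of CPM by library shows these spreads beside the group means.

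**Figure D1:**
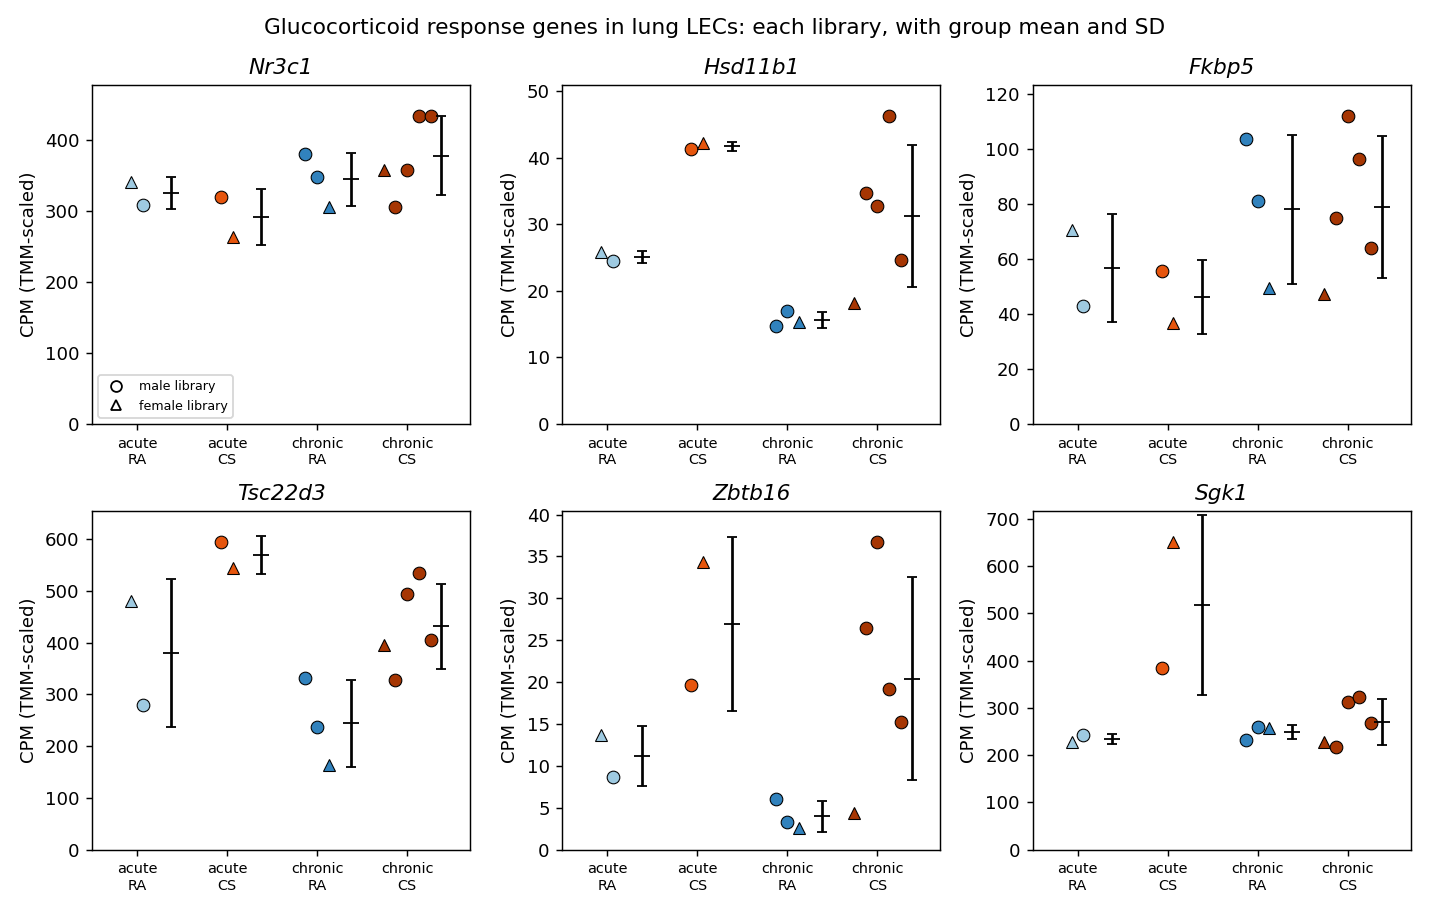
CPM (linear axis from 0) of each of the 6 genes in every library, by group; circles are male and triangles female libraries, and the black bar to the right of each group is its mean with SD (n = 2, 2, 3 and 5). Sgk1 stands apart in acute CS at 383 and 652 CPM, Hsd11b1 in chronic CS lies above all 3 chronic RA libraries, and Nr3c1 and Fkbp5 overlap between CS and RA at both times.

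After acute CS, 1 of the 6 members passed the threshold, Sgk1, against 3.47% of all genes tested (2.75% called higher). Of the 6 members, 4 were higher in both acute CS libraries than in both acute RA libraries, but with 2 libraries a side 27.4% of all genes were so placed in that direction. After chronic CS no member and no other gene passed in edgeR (0% of genes tested), whereas DESeq2 called 578 of these genes in this comparison, 3 of them members. At an unadjusted p under 0.05, 3 of 6 members passed after chronic CS, all higher (Zbtb16, Hsd11b1 and Tsc22d3), against 10.9% of genes tested (5.57% higher). The plot of fold changes gives all members in the 3 comparisons.

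**Figure D2:**
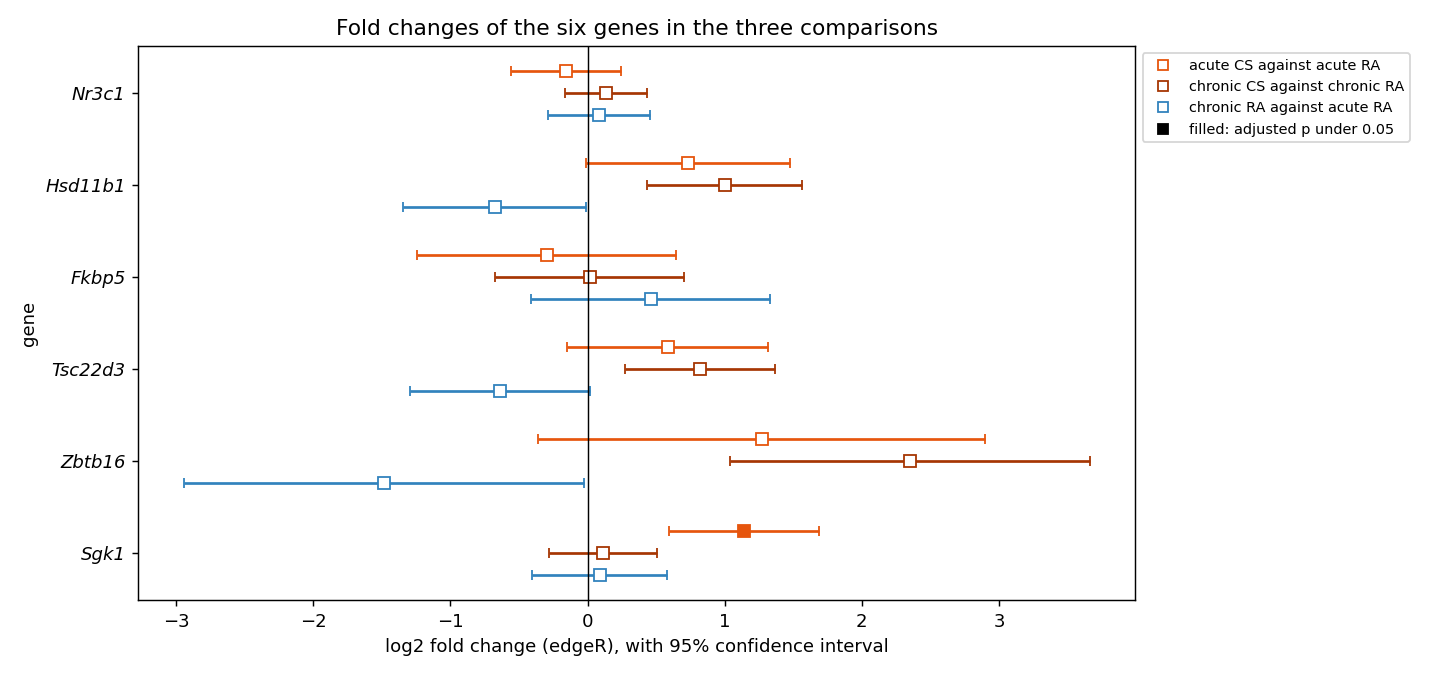
Log2 fold change from edgeR (x axis) of each gene (y axis) with its 95% confidence interval, for acute CS against acute RA (orange), chronic CS against chronic RA (brown) and chronic RA against acute RA (blue); filled squares have an adjusted p under 0.05. The only filled square is Sgk1 after acute CS at 1.14, and Zbtb16, Hsd11b1 and Tsc22d3 have intervals above 0 after chronic CS.

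Nr3c1 (ENSMUSG00000024431, GRCm38 chromosome 18, 39410545 to 39519421, minus strand) encodes the glucocorticoid receptor. It was counted at 341 CPM in acute RA F and 309 CPM in acute RA M, and at 264 CPM in acute CS F and 320 CPM in acute CS M. In chronic RA the values were 306 CPM in F, 381 CPM in M1 and 348 CPM in M2. Chronic CS libraries held 358 CPM in F, 306 CPM in M1, 358 CPM in M2, 434 CPM in M3 and 435 CPM in M4. The groups overlapped at both times, and the receptor gene was not detectably different with smoke. Its log2 fold change was -0.16 after acute CS (95% confidence interval -0.56 to 0.25, edgeR's adjusted p = 0.801) and 0.13 after chronic CS (-0.16 to 0.43, adjusted p = 0.752 from edgeR). Among 9845 genes with a mean of at least 10 CPM, those whose centred log2 CPM lay closest to that of Nr3c1 over the 12 libraries were Rab18 (root mean square difference 0.08), Ctnnb1 (0.10), the β-catenin gene, and Ltn1 (0.11).

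The receptor's relative Nr3c2, which encodes the mineralocorticoid receptor and can also bind corticosterone, was lower per length than Nr3c1, at 9.72 ± 0.51 FPKM in RA (SD, n = 5). It was counted at 66.6 CPM (F) and 61.4 CPM (M) in acute RA and at 34.3 CPM (F) and 48.4 CPM (M) in acute CS. Both smoke libraries lay below both controls, as did those of 4820 of the 21440 genes tested. Its log2 fold change of -0.63 did not pass (SE 0.22, edgeR's adjusted p = 0.172). After chronic CS its log2 fold change was 0.08 (SE 0.16, edgeR's adjusted p = 0.885).

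Nr3c2 was listed with 18 other genes of the receptor's chaperone complex and coregulators, all tested. After acute CS 1 of the 19 fell, none rose, and the median log2 fold change was -0.12 beside 0.04 over all genes tested. The one that fell was Ppid, which encodes the cyclophilin 40 co-chaperone of the receptor, from 131 CPM (F) and 120 CPM (M) in acute RA to 67.8 CPM (F) and 84.9 CPM (M) in acute CS. Its log2 fold change was -0.72 (SE 0.16, edgeR's adjusted p = 0.0309), against 0.723% of genes called lower. The call was lost without acute CS F (adjusted p = 0.280), acute RA F (0.228) or acute RA M (0.138), with only the 4 acute libraries (0.126) and with libraries of the same label (F, M, M1, M2) as blocks (0.131), each from edgeR. The block spends a term on each label, so fewer degrees of freedom remain, and a call can be lost for that alone. The lymphatic marker sum given above was also lower in acute CS, and its part in the Ppid values was not tested. Ppp5c, the phosphatase of the receptor's complex, had a log2 fold change of -0.48 (adjusted p = 0.112 from edgeR), Ep300 0.30 (0.444) and Ptges3 0.11 (0.922). After chronic CS none of the 19 passed in edgeR, and the median was 0.10 beside 0.01 over all genes. Those with the smallest p-values in each direction were the coactivator Ep300 (log2 fold change 0.48, edgeR's adjusted p = 0.272) and the corepressor Nrip1 (0.35, 0.330) among the higher, and the co-chaperone Dnajb1 (-0.89, 0.324) and Ppp5c (-0.11, 0.747) among the lower.

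Hsd11b1 (ENSMUSG00000016194, GRCm38 chromosome 1, 193221634 to 193264075, minus strand) encodes the enzyme that regenerates active corticosterone from its inert keto form inside cells. Acute RA held 25.7 CPM (F) and 24.4 CPM (M), and acute CS 42.1 CPM (F) and 41.2 CPM (M). Chronic RA held 15.4 CPM (F), 14.7 CPM (M1) and 17.0 CPM (M2). In chronic CS it was counted at 18.1 CPM (F), 34.6 CPM (M1), 32.7 CPM (M2), 46.3 CPM (M3) and 24.7 CPM (M4). Every smoke library lay above every control of its own time point, which no other member showed at both times and 1.67% of all genes tested did (3.92% for chronic CS alone). F was the lowest chronic CS library and lay just above the chronic RA range.

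The log2 fold change of Hsd11b1 was 0.73 after acute CS (SE 0.34, unadjusted p = 0.0525, adjusted p = 0.327 from edgeR). After chronic CS it was 1.0 (SE 0.26, 95% confidence interval 0.44 to 1.56, unadjusted p = 0.00240, adjusted p = 0.265 from edgeR), a 2.0-fold difference. Neither passed in edgeR, and DESeq2 gave an adjusted p of 0.00808 for the chronic comparison. The 2 effects did not differ detectably (difference -0.27, SE 0.42, edgeR's adjusted p = 0.888). Between the controls, chronic RA lay below acute RA in every library, with a log2 fold change of -0.68 (SE 0.30, unadjusted p = 0.0474, adjusted p = 0.708 from edgeR). These controls are also the baselines of both smoke comparisons.

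The gene pattern most like that of Hsd11b1 was Nbl1, at a root mean square difference of 0.28, followed by Prdx6 (0.29) and Inmt (0.30) over the 12 libraries. Inmt belongs to the list of 11 mesenchyme markers, of which all were counted in every library. Those markers summed to 363 to 386 CPM in acute RA, 955 to 1351 CPM in acute CS, 186 to 246 CPM in chronic RA and 351 to 682 CPM in chronic CS. As with Hsd11b1, the lowest chronic CS library was F and the sums of smoke and control libraries did not overlap at either time. The 11 alveolar epithelial markers summed to 1200 to 5086 CPM in chronic CS and 260 to 523 CPM in chronic RA, and to 8830 CPM (F) and 272 CPM (M) in acute CS against 1866 CPM (F) and 1086 CPM (M) in acute RA. The part of these cell types in the Hsd11b1 values was not tested.

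Of 8 other genes of steroid supply and transport, 6 were tested and none passed after acute or chronic CS in edgeR. Hsd11b2, whose enzyme inactivates corticosterone and so opposes Hsd11b1, was counted at 0 to 1.26 CPM, and 3 of the 5 RA libraries were at 0. A count of 0 in acute RA M allows up to 0.0568 CPM. H6pd, which supplies the cofactor of Hsd11b1 in the endoplasmic reticulum, held 29.8 ± 6.90 FPKM in RA (SD, n = 5) and had log2 fold changes of -0.34 after acute CS (edgeR's adjusted p = 0.709) and -0.19 after chronic CS (0.785). The steroid exporter gene Abcb1a was counted at 2.79 CPM (F) and 0.13 CPM (M) in acute RA and at 45.0 CPM (F) and 35.2 CPM (M) in acute CS. Its log2 fold change was 4.77 (SE 1.40) and did not pass (edgeR's adjusted p = 0.100).

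Fkbp5 (ENSMUSG00000024222, GRCm38 chromosome 17, 28399094 to 28517527, minus strand) encodes FKBP51, a co-chaperone that lowers the affinity of the receptor for its hormone and is itself induced by the receptor. Acute RA held 70.7 CPM (F) and 42.8 CPM (M), and acute CS 36.6 CPM (F) and 55.8 CPM (M). Chronic RA held 49.5 CPM (F), 104 CPM (M1) and 81.2 CPM (M2), and chronic CS 47.2 CPM (F), 75.0 CPM (M1), 112 CPM (M2), 96.4 CPM (M3) and 64.0 CPM (M4). Smoke and control libraries overlapped at both times, and in both chronic groups the female library was the lowest. The log2 fold change was -0.30 after acute CS (95% confidence interval -1.24 to 0.65, edgeR's adjusted p = 0.855). After chronic CS it was 0.02 (-0.67 to 0.71, adjusted p = 0.994 from edgeR).

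The pattern most like Fkbp5 was that of Cebpd (root mean square difference 0.29), a transcription factor gene also listed here as induced by glucocorticoids, followed by Spaar (0.29) and Pcbp4 (0.31). Cebpd was counted at 273 to 583 CPM. Its log2 fold changes were 0.03 after acute CS (edgeR's adjusted p = 0.984) and 0.40 after chronic CS (0.463). Of the other members Nr3c1 was closest to Fkbp5, at a root mean square difference of 0.40, and Zbtb16 farthest, at 1.28. This measure is not scaled by spread, so a steady gene such as Nr3c1 (SD 0.21) tends to lie closer than a variable one such as Zbtb16 (SD 1.30). Nr3c1 stood 144th among 9845 genes in likeness to Fkbp5, and Fkbp5 stood 6547th in likeness to Nr3c1.

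Tsc22d3 (ENSMUSG00000031431, GRCm38 chromosome X, 140539528 to 140600659, minus strand) encodes GILZ, a leucine zipper protein that restrains inflammatory transcription factors. Acute RA held 481 CPM (F) and 279 CPM (M), and acute CS 544 CPM (F) and 595 CPM (M). Chronic RA held 164 CPM (F), 332 CPM (M1) and 237 CPM (M2). Chronic CS held 396 CPM (F), 327 CPM (M1), 494 CPM (M2), 534 CPM (M3) and 405 CPM (M4). Both acute CS libraries lay above both controls, and after chronic CS a single crossing remained, between chronic CS M1 and chronic RA M1.

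The log2 fold change of Tsc22d3 was 0.58 after acute CS (SE 0.33, edgeR's adjusted p = 0.460). After chronic CS it was 0.82 (SE 0.25, 95% confidence interval 0.27 to 1.37, unadjusted p = 0.00706, adjusted p = 0.329 from edgeR), and DESeq2 gave an adjusted p of 0.0380. The mesenchyme and alveolar epithelial sums given for Hsd11b1 were higher in the same comparison, and their part in the Tsc22d3 values was not tested. Its lowest level was in chronic RA, at 244 ± 84.3 CPM (SD, n = 3) against 380 ± 143 CPM in acute RA (SD, n = 2), a log2 fold change of -0.64 (adjusted p = 0.713 from edgeR). The gene patterns close to that of Tsc22d3 included those of the clock gene Cry2 (root mean square difference 0.27) and Ppp1r12b (0.33). Hsd11b1 stood 30th among the 9845 genes in likeness to Tsc22d3 (0.38), Sgk1 437th, Nr3c1 1478th, Fkbp5 6584th and Zbtb16 8925th.

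Zbtb16 (ENSMUSG00000066687, GRCm38 chromosome 9, 48654297 to 48836222, minus strand) encodes the zinc finger repressor PLZF. It was counted at 13.7 CPM (F) and 8.68 CPM (M) in acute RA and at 34.3 CPM (F) and 19.7 CPM (M) in acute CS. Chronic RA held 2.57 CPM (F), 6.11 CPM (M1) and 3.31 CPM (M2). Chronic CS held 4.41 CPM (F), 26.5 CPM (M1), 36.8 CPM (M2), 19.2 CPM (M3) and 15.2 CPM (M4). The 4 male chronic CS libraries lay above the chronic RA range and the female library inside it. Only 1 chronic CS library was female, so sex and library cannot be told apart there.

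Zbtb16 had the largest fold change of the 6 genes in each smoke comparison, but after acute CS its lead over Sgk1 (1.14) was smaller than its SE. After chronic CS the log2 fold change was 2.35 (SE 0.60, 95% confidence interval 1.04 to 3.66, unadjusted p = 0.00224, adjusted p = 0.261 from edgeR), a 5.11-fold difference that did not pass, while DESeq2 gave an adjusted p of 0.00204. It was 2.51 with chronic CS F, M1 and M2 only and 2.11 with M3 and M4 only, where the former set spans 4.41 to 36.8 CPM. After acute CS it was 1.27 (SE 0.74, 95% confidence interval -0.36 to 2.90, edgeR's adjusted p = 0.474). Chronic RA lay below acute RA in every library, with a log2 fold change of -1.49 (SE 0.67, unadjusted p = 0.0469, adjusted p = 0.708 from edgeR).

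Zbtb16 most resembled Mfap4 (root mean square difference 0.55), Inmt (0.66) and Lmo7 (0.67), and Mfap4 and Inmt are both on the mesenchyme marker list. The mesenchyme sum was 351 CPM in chronic CS F, 628 CPM in M1, 682 CPM in M2, 610 CPM in M3 and 472 CPM in M4, the same order as for Zbtb16 in these libraries. In acute CS the order was reversed, with 955 CPM in F and 1351 CPM in M. Of the 11 markers, 10 had a higher fitted value after chronic CS and 8 lay above chronic RA without overlap, as did 3.92% of all genes tested. Their part in the Zbtb16 values was not tested, and the plot of both genes against the marker sum shows each library.

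**Figure D3:**
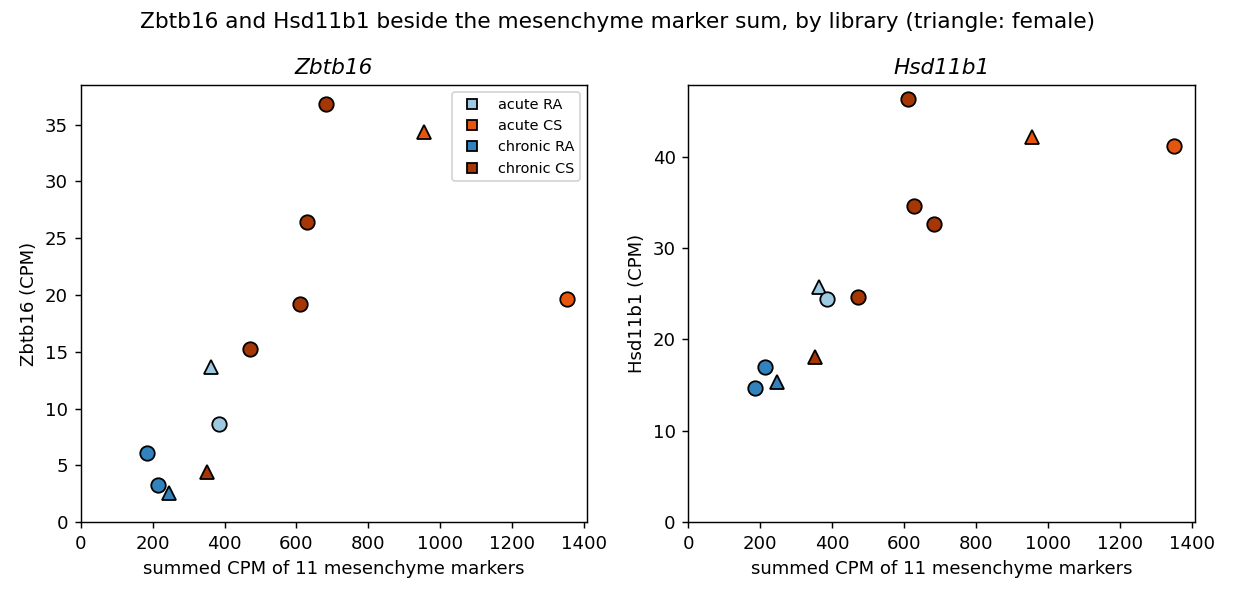
CPM of Zbtb16 (left) and Hsd11b1 (right) on the y axis against the summed CPM of 11 mesenchyme markers on the x axis (linear axes from 0), 1 point per library, coloured by group, with triangles for female libraries. Chronic RA sits at the lower left at marker sums of 186 to 246 CPM, chronic CS F lies next to it at 351 CPM, and the acute CS libraries lie farthest right at 955 and 1351 CPM.

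Sgk1 (ENSMUSG00000019970, GRCm38 chromosome 10, 21882184 to 21999903, plus strand) encodes a kinase that promotes survival and sodium transport and that glucocorticoids and mineralocorticoids induce. It rose after acute CS, from 227 CPM (F) and 242 CPM (M) in acute RA to 652 CPM (F) and 383 CPM (M). The log2 fold change was 1.14 (SE 0.25, 95% confidence interval 0.60 to 1.69), 2.21-fold, with an unadjusted p of 7.24e-04 and an adjusted p of 0.0288 from edgeR. Chronic RA held 257 CPM (F), 233 CPM (M1) and 260 CPM (M2), and chronic CS 228 CPM (F), 218 CPM (M1), 312 CPM (M2), 324 CPM (M3) and 269 CPM (M4). Both acute CS libraries lay above all 10 others, while the chronic groups overlapped, with M2, M3 and M4 of chronic CS above the RA range and F and M1 below it. The chronic log2 fold change was 0.11 (95% confidence interval -0.28 to 0.51, edgeR's adjusted p = 0.847).

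The acute effect on Sgk1 exceeded the chronic effect by 1.03 on the log2 scale (SE 0.30, unadjusted p = 0.00590), which did not pass after adjustment (adjusted p = 0.182 from edgeR, where 0.452% of genes passed). No member passed this test of the difference, and Sgk1 was the only one under an unadjusted p of 0.05, against 11.9% of genes tested. The acute call rested on few libraries: without acute CS F the log2 fold change was 0.71 (adjusted p = 0.260), and the call was also lost without acute RA F (adjusted p = 0.216) or acute RA M (0.209), with only the 4 acute libraries in the fit (0.149), and with libraries of the same label as blocks (0.112), all in edgeR. Leaving out an acute library leaves 1 library in its group, which is then assumed to vary like the others. The leukocyte markers summed to 2266 CPM in acute CS F and 1527 CPM in acute CS M and the alveolar epithelial markers to 8830 and 272 CPM, both in the same order as Sgk1, although the epithelial sum of acute CS M lay below both acute RA libraries. The mesenchyme, lymphoid, alveolar macrophage (2653 and 2675 CPM) and erythroid markers (10.6 and 697 CPM) had the lower sum in F. Blood endothelium markers had the higher sum in F, at 10887 against 9998 CPM, and both lay above acute RA (7147 to 8353 CPM). The part of these cell types in the rise of Sgk1 was not tested. The closest patterns over the 12 libraries were those of Iqgap1 (root mean square difference 0.15), which encodes a scaffold of the cytoskeleton, Eml1 (0.16) and Tmem243 (0.16).

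A full glucocorticoid response element was searched as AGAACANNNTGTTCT on both strands of RefSeq promoters of GRCm38.p6, each covering 250 bases before and 50 after a start site. It was found in 3 of 32817 promoters (0.00914%). Only exact copies inside these windows were counted. Elements that differ in a base of the hexamers or lie outside the windows were not searched for. One of the 3 belongs to Sgk1, and the other two to Acnat2 and Gm35041. For the members, promoters of 4 of the 6 were used, 11 in all, and those of Nr3c1 and Zbtb16 were left out of this count. Of these 11, 4 held at least 1 hexamer AGAACA on either strand (a full element contains 2), against 18.97% of all 32817 promoters. Of these 4, 3 were of Sgk1 and 1 of Tsc22d3, which did not pass after acute CS. The Sgk1 element lies at chr10:21993701-21993715, 189 bases before the start site 21993890 of transcript Sgk1-202 and 965 bases before the start site 21994666 of the principal transcript Sgk1-201 in GENCODE. The 250 bases before the former hold no annotated exon, so for the longer Sgk1 transcripts they are intronic. They are printed with the same stretch before the principal Sgk1 start site and before that of Fkbp5, which hold no hexamer, to show the paired hexamers beside stretches without them. The Fkbp5 start site is the RefSeq one at 28486149, whereas the gene in GENCODE reaches farther upstream, to 28517527. Fkbp5 was chosen with its values known, so the choice says nothing of a link between hexamers and expression. All run 5′ to 3′ on the strand of the gene, and capitals mark hexamers.
Sgk1 before the Sgk1-202 start site, chr10:21993640-21993889, plus strand: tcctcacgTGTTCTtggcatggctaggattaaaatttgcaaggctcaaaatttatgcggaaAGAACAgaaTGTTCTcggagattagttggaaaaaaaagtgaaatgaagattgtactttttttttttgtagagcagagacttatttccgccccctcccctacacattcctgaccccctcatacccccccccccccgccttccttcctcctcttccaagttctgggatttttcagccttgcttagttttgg
Sgk1 before the Sgk1-201 start site, chr10:21994416-21994665, plus strand: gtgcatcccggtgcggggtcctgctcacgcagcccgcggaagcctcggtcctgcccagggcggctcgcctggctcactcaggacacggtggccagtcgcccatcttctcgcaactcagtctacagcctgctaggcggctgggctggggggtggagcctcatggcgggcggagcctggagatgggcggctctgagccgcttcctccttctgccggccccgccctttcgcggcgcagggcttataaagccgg
Fkbp5 before its start site, chr17:28486150-28486399, minus strand: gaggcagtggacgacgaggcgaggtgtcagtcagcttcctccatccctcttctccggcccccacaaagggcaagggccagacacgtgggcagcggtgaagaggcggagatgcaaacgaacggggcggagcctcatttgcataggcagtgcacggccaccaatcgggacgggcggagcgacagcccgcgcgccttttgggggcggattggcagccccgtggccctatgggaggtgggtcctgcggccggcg
In the first sequence the spacer between the paired hexamers is gaa, and a further hexamer stands near its 5′ end. A match of letters is a description and says nothing of binding in these cells.

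Of 9 kinase partners and substrates of Sgk1, none passed after acute or chronic CS in edgeR, with median log2 fold changes of 0.75 and 0.50 beside 0.04 and 0.01 over all genes. Nedd4l, a ubiquitin ligase that Sgk1 phosphorylates, was counted at 23.4 CPM (F) and 27.3 CPM (M) in acute RA and at 54.9 CPM (F) and 34.8 CPM (M) in acute CS, with female above male in acute CS as for Sgk1. Its log2 fold change was 0.82 after acute CS (SE 0.31, edgeR's adjusted p = 0.212) and 0.59 after chronic CS (SE 0.23, adjusted p = 0.402 from edgeR). Rictor, a subunit of the complex that activates Sgk1, had values of -0.03 (edgeR's adjusted p = 0.982) and 0.50 (0.325). Ndrg1, a substrate, had -0.46 after acute CS (edgeR's adjusted p = 0.602). The epithelial sodium channel subunit gene Scnn1a was counted at 7.25 CPM (F) and 3.92 CPM (M) in acute RA and at 39.1 CPM (F) and 2.56 CPM (M) in acute CS, so its acute value of 1.90 (adjusted p = 0.474 from edgeR) rested on acute CS F, while acute CS M lay below both controls. The alveolar epithelial sum was also highest in that library, and its part was not tested.

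Outside the 6 members, 31 genes listed as induced by glucocorticoids were tested. After acute CS 1 rose and 1 fell, where 2.75% and 0.723% of all genes did, so the count that rose was near the background. The median log2 fold change was 0.34 beside 0.04 over all genes, with 22 of 31 above 0 (71.0%) beside 53.0%. The gene that rose was Mertk, a receptor for the uptake of dying cells, from 21 CPM (F) and 11 CPM (M) to 88.1 CPM (F) and 47.3 CPM (M), a log2 fold change of 2.08 (SE 0.43, edgeR's adjusted p = 0.0247). The 11 alveolar macrophage markers summed to 720 to 814 CPM in acute RA and 2653 to 2675 CPM in acute CS, and their part in the Mertk values was not tested. The gene that fell was Dusp1, a phosphatase that switches off MAP kinases, from 4755 CPM (F) and 4372 CPM (M) to 3058 CPM (F) and 3061 CPM (M). The log2 fold change was -0.58 (SE 0.12, edgeR's adjusted p = 0.0243). The lymphatic marker sum was lower in acute CS as well, and its part in the Dusp1 values was not tested. Mertk lost its call without acute CS F (log2 fold change 1.56, adjusted p = 0.211), acute RA F (adjusted p = 0.0760) or acute RA M (0.246), and Dusp1 without any 1 of the 4 acute libraries (adjusted p 0.0625 to 0.208), each from edgeR. Both calls were also lost with only the acute libraries (adjusted p = 0.123 for Mertk and 0.153 for Dusp1) and with the block by label (0.0655 and 0.0875, from edgeR).

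Per1, a clock gene with a well known response to glucocorticoids, was counted at 21.3 CPM (F) and 15.3 CPM (M) in acute RA and at 55.7 CPM (F) and 32.4 CPM (M) in acute CS. Chronic RA held 9.71 CPM (F), 12.8 CPM (M1) and 9.09 CPM (M2). Chronic CS held 24 CPM (F), 36.1 CPM (M1), 33.5 CPM (M2), 28.2 CPM (M3) and 21.2 CPM (M4). Every smoke library lay above every control of its time, as was so for 1.67% of genes tested. The log2 fold changes were 1.27 after acute CS (SE 0.33, edgeR's adjusted p = 0.0671) and 1.44 after chronic CS (SE 0.26, unadjusted p = 1.44e-04, adjusted p = 0.172 from edgeR), and neither passed.

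Klf9, a receptor target that encodes a zinc finger repressor, had the smallest p-value of the induced list after chronic CS. It was counted at 217 CPM (F), 258 CPM (M1) and 224 CPM (M2) in chronic RA and at 353 CPM (F), 383 CPM (M1), 377 CPM (M2), 335 CPM (M3) and 359 CPM (M4) in chronic CS. Chronic CS lay above chronic RA without overlap, as was so for 3.92% of genes tested. The log2 fold change was 0.63 (SE 0.11, unadjusted p = 1.04e-04, adjusted p = 0.159 from edgeR). After acute CS the value was -0.18 (edgeR's adjusted p = 0.665), and the acute effect was lower than the chronic effect by 0.81 (SE 0.18), which did not pass (adjusted p = 0.0866 from edgeR). None of the 31 passed after chronic CS in edgeR. Of them 22 were above 0 (71.0%) beside 51.3% of all genes, with a median of 0.38 beside 0.01. The mesenchyme and alveolar epithelial sums given for Hsd11b1 were higher in the same comparison, and their part in the Per1 and Klf9 values was not tested. Lower values after chronic CS included Angptl4, a secreted inhibitor of lipoprotein lipase (-1.16, edgeR's adjusted p = 0.260), and the water channel gene Aqp1 (-0.50, 0.333).

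Of 14 inflammatory genes listed as repressed by glucocorticoids, 3 rose after acute CS, against 2.75% of all genes, and none fell, against 0.723%. The median log2 fold change was 2.79 beside 0.04 over all genes tested. Icam1, a leukocyte adhesion receptor, rose from 58.3 CPM (F) and 65.1 CPM (M) to 356 CPM (F) and 253 CPM (M), by 2.30 on the log2 scale (SE 0.27, edgeR's adjusted p = 0.00364). Vcam1, another, rose from 18.1 CPM (F) and 11.9 CPM (M) to 150 CPM (F) and 315 CPM (M), by 3.95 (SE 0.67, edgeR's adjusted p = 0.0106). Il1a, an alarm cytokine, rose from 0.44 CPM (F) and 0.64 CPM (M) to 16.5 CPM (F) and 6.18 CPM (M), by 4.38 (SE 0.86, edgeR's adjusted p = 0.0201). The leukocyte and mesenchyme sums given above were higher in the same comparison, as was that of the 12 blood endothelium markers. In acute CS the leukocyte, blood endothelium and alveolar epithelium sums were higher in F, as were Icam1 and Il1a. The mesenchyme, lymphoid, alveolar macrophage and erythroid sums were higher in M, as was Vcam1. With 2 libraries in the group this order cannot tell the cell types apart. The part of these cell types was not tested. After chronic CS none of the 14 passed in edgeR and the median was -0.07. Il6 and Il1b, both cytokines, had the smallest p-values there, with log2 fold changes of 3.52 (SE 1.0, edgeR's adjusted p = 0.312) and 3.08 (SE 0.93, adjusted p = 0.324 from edgeR). In all 3 called genes the call was lost without acute RA M (adjusted p = 0.0746 for Icam1, 0.141 for Vcam1 and 0.171 for Il1a), and in Vcam1 and Il1a also without acute RA F (0.0924 and 0.192), from edgeR. Il1a further lost it without acute CS F (log2 fold change 3.51, adjusted p = 0.141 from edgeR). With only the acute libraries and with the block by label Icam1 still passed (edgeR's adjusted p = 0.0453 and 0.0431), whereas Vcam1 (0.0585 and 0.0733) and Il1a (0.0844 and 0.170) did not.

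**Figure D4:**
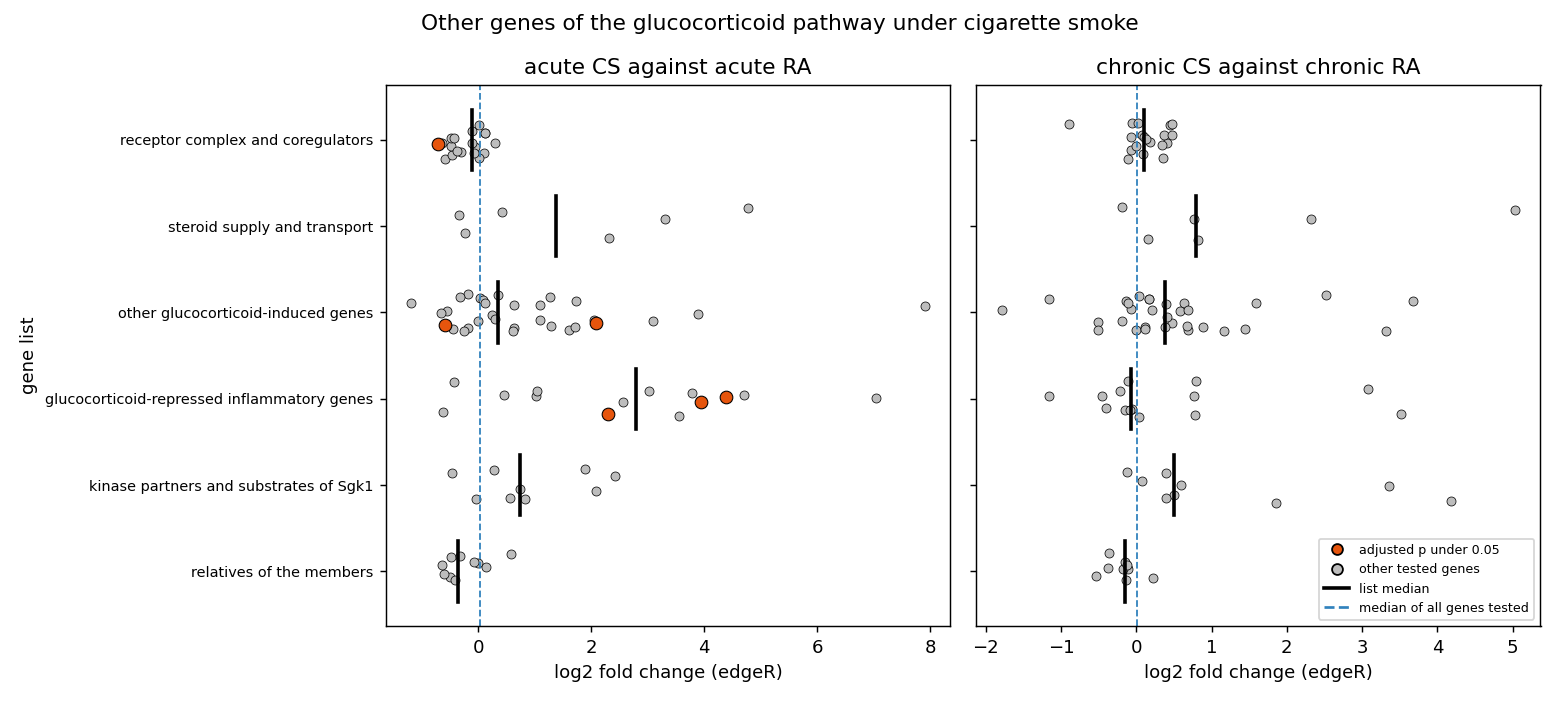
Log2 fold change from edgeR (x axis) of 89 tested genes in 6 lists of the glucocorticoid pathway (y axis), after acute CS (left) and chronic CS (right), with 1 point per gene, filled orange where the adjusted p is under 0.05, a black bar at each list's median and a dashed line at the median of all genes tested. After acute CS 6 genes are orange, 3 of them in the list of repressed inflammatory genes, and none after chronic CS.

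Among 11 relatives of the members by protein family, 10 were tested and none passed after acute or chronic CS in edgeR, with medians of -0.36 and -0.15. Tsc22d2 and Tsc22d4, of the family of Tsc22d3, had acute log2 fold changes of -0.60 (edgeR's adjusted p = 0.0721) and 0.58 (0.139). Fkbp8 and Fkbp9, of the family of Fkbp5, had chronic values of -0.36 (edgeR's adjusted p = 0.261) and -0.37 (0.367). Sgk3 held 13.2 ± 1.73 FPKM in RA (SD, n = 5), below the 49.7 FPKM of Sgk1, and Sgk2 was listed at 0 in all 5 RA libraries.

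Between the room air controls, chronic RA against acute RA, no member and no other gene passed in edgeR (0% of genes), while 278 of these genes passed in DESeq2, none of them a member. At an unadjusted p under 0.05, 2 of 6 members were lower in chronic RA, Zbtb16 and Hsd11b1, against 7.01% of genes tested (2.5% lower). The same 2 lay below without overlap, as did 17% of all genes. None of the 89 list genes passed. Per1 had a log2 fold change of -0.80 (SE 0.30, unadjusted p = 0.0213, adjusted p = 0.651 from edgeR). Sgk1, Nr3c1 and Fkbp5 had values of 0.09, 0.08 and 0.46 in this comparison (edgeR's adjusted p = 0.976, 0.965 and 0.852).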

How the data were processed

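RNA of sorted lung LECs was counted in 12 libraries. The deposited values are raw read counts of Ensembl genes. To make them, the authors checked reads with FastQC (0.11.9 in the submitters' processing notes), trimmed adapters with Skewer, and aligned and counted with STAR on GRCm38 in its GeneCounts mode. The strand setting is not given in the sources used here. Prior normalization by the authors is not part of the deposited counts.

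Groups, sex and number come from the labels. GENCODE M21 gave gene names, positions and the lengths of exons, and 147 of 52636 identifiers were not found in it. No member shares exon bases with another gene. The counts were fitted with edgeR 4.0.16 under R 4.3.3, with TMM factors and its filter by expression, all 12 libraries together by group, with the quasi-likelihood F-test and Benjamini-Hochberg adjustment. Standard errors come from the fold change and the F statistic. For log2 CPM a prior count of 2 was added. A floor of 3 counts is 0.158 CPM in chronic CS F and 0.0507 CPM in acute RA F and covers counting error only. Tables and plots used Python 3.11.15, pandas 2.3.3 and matplotlib 3.10.9.

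On counts simulated at these depths, edgeR called 3 of 97 genes changed 2-fold and 28 of 96 changed 4-fold in the acute comparison (20473 genes tested), and 21 of 96 and 44 of 94 in the chronic comparison (20430 genes tested).

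The members and the lists were chosen with earlier results of these data known. Named genes are the 6 members, list genes past an adjusted p of 0.05, otherwise up to 2 per direction and list with the smallest p, Prox1, Flt4, Ptprc, Epcam and Col1a1, and the 3 genes most alike in pattern per member, of which 1 is not reported here. Nr3c2, Hsd11b2, Cebpd and Sgk3 are named for their relation to a member, after their values were seen.

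Alternatives were a replicate block, a term for sex, DESeq2 1.42.0, scaling by library size, no filter on low counts, the 2 groups of a comparison alone, robust dispersions, an unadjusted p, each library left out in turn, and either the 3 shallower or the 2 deeper chronic CS libraries. Promoters come from RefSeq (GRCm38.p6), with no entry used for Nr3c1 or Zbtb16.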

Additional observations from a re-analysis of the deposited data

Results flagged for a closer look

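Icam1, a leukocyte adhesion gene of the list repressed by glucocorticoids, was picked out because its acute and chronic effects of CS differed by the test of the difference itself. The acute effect exceeded the chronic effect by 2.27 on the log2 scale (SE 0.32, edgeR's adjusted p = 0.0333). It was counted at 58.3 and 65.1 CPM in acute RA, 356 and 253 CPM in acute CS, 103 to 113 CPM in chronic RA and 89.2 to 153 CPM in chronic CS, so that the acute CS libraries were highest and the acute RA libraries lowest. Chronic RA exceeded acute RA by 0.80 on the log2 scale (SE 0.24, unadjusted p = 0.00597, adjusted p = 0.513 from edgeR), and this difference of baselines enters the difference of the effects. The call was lost without any 1 of the acute libraries other than acute CS M, any chronic RA library or chronic CS M4 (edgeR's adjusted p 0.0514 to 0.20), and with libraries of the same label as blocks (0.109). No member met this condition, and none of the 6 sets of 5 chronic CS values held a library far from the others by Dixon's test.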

How the results depend on the processing

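The acute call of Sgk1, the 1 member called, became 0 with only the groups compared and with the replicate block, and 0 to 1 when single libraries were left out (without acute CS F, acute RA F or acute RA M). The 6 list genes called after acute CS became 2 with only the groups compared, 1 with the block, 18 in DESeq2 (9.8% of all genes with an adjusted p), 29 at an unadjusted p under 0.05 (15.7% of all genes) and 0 to 8 with a library left out. After chronic CS, where edgeR called 0 members and 0 list genes, DESeq2 called 3 and 11 (3.01% of all genes) and an unadjusted p called 3 and 21 (10.9%). Between the controls the unadjusted p called 2 members and 14 list genes (7.01% of all genes). For the difference of the effects, 0 members became 1 at an unadjusted p and 0 to 1 with a library left out (1 without acute CS M, where Sgk1 had 1.36 and edgeR's adjusted p was 0.0412). The 1 list gene became 3 without the filter, 0 with the block, 2 with chronic CS F, M1 and M2 only, 9 in DESeq2 (5.41% of all genes), 19 at an unadjusted p (11.9%) and 0 to 3 with a library left out.

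No member was called in a comparison in which it changed sign, before or after the change. For Nr3c1 the chronic value was -0.016 with the block and -0.0015 with chronic CS F, M1 and M2 only, and the control value -0.024 with library size, which moved the median of all genes to -0.10 there and to 0.10 in the chronic comparison. Fkbp5 had -0.036 with sex as a covariate and -0.023 with the block after chronic CS, and -0.24 with the block between controls. Sgk1 had -0.017 with library size and -0.14 with the block between controls. With a library left out, Fkbp5 ran from -0.65 to 0.11 (acute), -0.22 to 0.28 (chronic) and -0.67 to 0.10 (difference), Nr3c1 from -0.0026 to 0.16 between controls, and Tsc22d3 from -0.62 to 0.21 (difference). Of 360 member values under an alternative, 335 kept direction and side of the threshold.

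Libraries that share a label deviated from their group means with a correlation of -0.04 to 0.03 in the 3 chronic pairs, so the labels do not pair these samples. With 2 libraries a group the acute pairs share 1 value by construction (0.07), which is no check. The block gave the counts above, and its terms for the labels leave fewer degrees of freedom to estimate the spread. Depth limits Zbtb16 most, at 82 counts in chronic RA F and 84 in chronic CS F.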
